A study of Mus musculus with 6 samples.

Results

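Chemokines, interleukins and their receptors were read in cells with and without knockdown of RNF11, the gene of a ubiquitin ligase. The genes were taken by symbol: protein-coding rows of the deposited count table beginning CXCL, CCL, CX3CL, CXCR, CCR, ACKR or IL followed directly by a digit. This gave 79 of the 20499 listed genes. By symbol, 38 were classed as ligands and 37 as receptors or receptor chains, the soluble receptor IL22RA2 among them. The other 4 were the antagonists IL1RN and IL36RN, the binding protein IL18BP and the enzyme IL4I1. RNA had been sequenced in 6 libraries from cells labelled AML12, a line of mouse hepatocytes immortalized in culture. The 3 shControl libraries carried a control lentivirus (genotype given as WT) and the 3 shRNF11 libraries a lentivirus against RNF11. All 6 had been through hypoxia and reoxygenation, with 6 h at 1% oxygen in medium without glucose and serum and then complete medium in normal air; that medium held 10% serum and 40 ng/mL dexamethasone, a synthetic glucocorticoid. The labels give no clone, no shRNA sequence and no time of harvest after reoxygenation. They do not say that replicates came from separate cultures, so p-values cover only the variation among these 6 libraries, possibly technical.

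Chemokines are small secreted proteins that draw cells along a gradient through receptors coupled to G proteins, while atypical chemokine receptors (ACKR) bind chemokines without that coupling and clear them. Many interleukins act through paired chains, one that recognizes the cytokine and a shared one needed for the signal. Shared chains are IL6ST in the IL6 family, IL1RAP in the IL1 family and IL10RB in the IL10 family. In injured liver, CXCL8 and its relatives attract neutrophils, IL6 and IL11 act on hepatocytes and stromal cells, and IL1 and IL18 are released by stressed or dying cells.

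The groups were first checked on the targeted gene and the cells. RNF11 reads numbered 2050, 1926 and 1930 in shControl and 573, 565 and 599 in shRNF11 libraries. Library totals lay between 37485850 and 39045440 reads. On the second principal component, which held 16.6% of the variance, shRNF11 replicate 1 stood apart at -26.4, against 13.6 and 11.5 for the other shRNF11 libraries. The table's gene numbers and pathway terms are human although the labels give mouse, and 0 of its Entrez numbers is a mouse gene. Of 8 hepatocyte markers, 5 were listed and 0 passed the count filter, with 4 to 20 reads in all per library. Of 8 leukocyte markers, 4 were listed; CD68, which many cell types use, held nearly all of their reads, ITGAM had 8 reads over all libraries, and their summed level was 47.7 to 52.8 CPM in shControl and 41.8 to 46.5 CPM in shRNF11 libraries. CD68 was 1.13-fold lower in shRNF11 cells (edgeR adjusted p = 0.00857). CD14 had 10, 16 and 10 reads in shControl and 15, 16 and 3 in shRNF11 libraries and did not pass. LCP1, of the same list, had 1, 0 and 2 reads in shControl and 12, 2 and 10 in shRNF11 libraries. Of 6 epithelial markers, 4 were listed and 3 tested, all of them higher: KRT8 (1.54-fold), KRT7 (1.14-fold) and KRT18 (1.19-fold). CDH1, too sparse to test, had 5, 4 and 8 reads in shControl and 6, 5 and 1 in shRNF11 libraries. EPCAM and KRT19 were not listed. The summed level, most of it KRT7, was 3104 to 3233 CPM in shControl and 3772 to 3898 CPM in shRNF11 libraries. Of 5 mesenchymal markers, all tested, COL1A2 was higher (156, 16 and 19 reads in shControl against 16, 207 and 279 in shRNF11 libraries, so that the groups overlap) and ACTA2 2.07-fold lower, and the summed level was 65.0 to 82.8 against 58.5 to 79.3 CPM. Of 4 endothelial markers 1 was tested, CDH5, which did not pass, and they held 101 to 115 reads in all per shControl library and 84 to 131 per shRNF11 library. CDH5 held most of these, with 107, 103 and 99 against 80, 110 and 57 reads (log2 fold change -0.29). The others were too sparse to test. PECAM1 had 4, 5 and 0 against 7, 14 and 13 reads, VWF 0, 7 and 2 against 2, 5 and 13, and KDR 0, 0 and 0 against 0, 2 and 1. The part of any other cell type in the results below was not tested. In RNA from whole cultures, fewer cells that make a transcript and less transcript per cell cannot be told apart.

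Enough reads for a test were found for 35 of the 79 genes, and 13 of these changed, 5 higher and 8 lower in shRNF11 cells (adjusted p under 0.05 in edgeR's quasi-likelihood test over all 13489 tested genes). Of all tested genes 32.1% changed, 17.4% higher and 14.7% lower, so the share of 37.1% among the tested members lay near that of the transcriptome. Most tested members had low levels, at which a smaller share of all genes changed, as given by level below. Of 14 tested ligands 1 was higher and 3 lower, and of 20 tested receptors 4 were higher and 5 lower. The median log2 fold change was 0.01 for the tested ligands and -0.11 for the tested receptors, beside -0.01 for all tested genes. A change of at least 2-fold was found for IL11 and CXCR4, both lower, and 1.59% of all tested genes changed by that much. The libraries of the groups did not overlap for 15 of the 35 tested members, 10 of them with shRNF11 below, and for 42.8% of all tested genes. Without shRNF11 replicate 1, the counts were 4 ligands and 9 receptors, the same genes as with it.

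**Figure D1:**
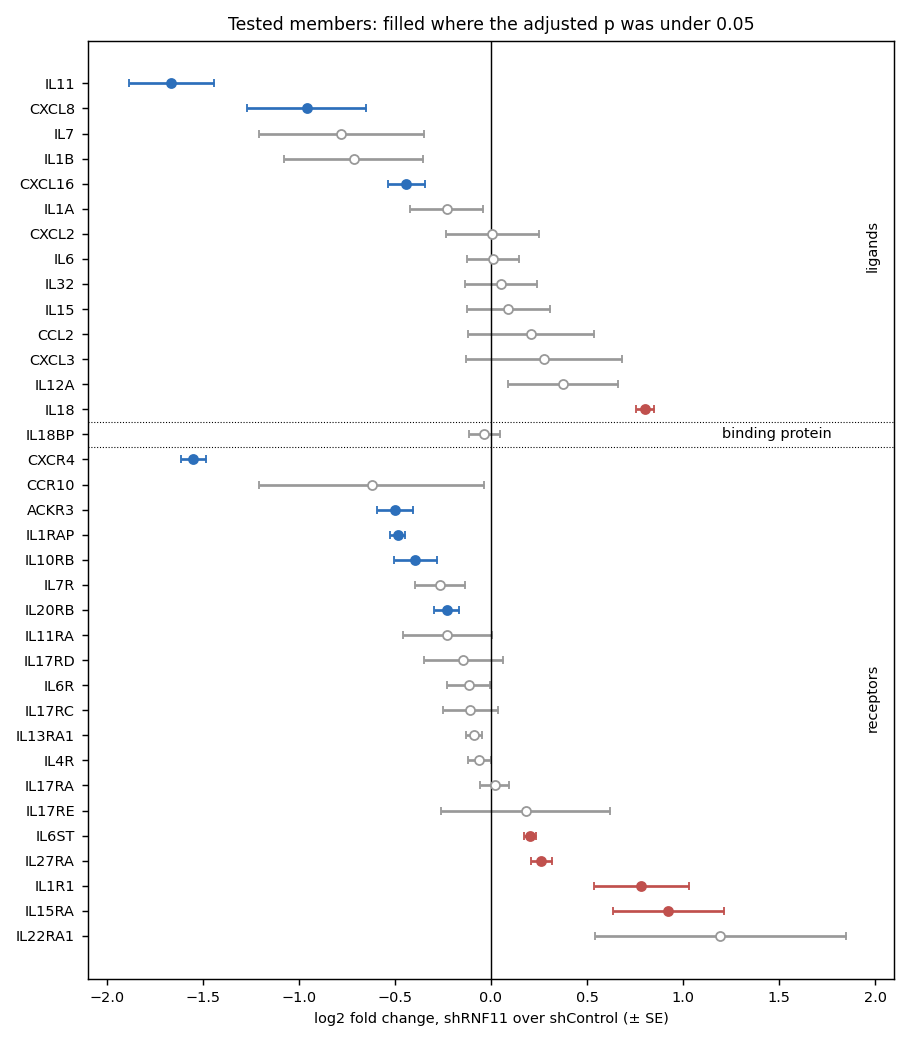
Log2 fold change of shRNF11 over shControl cells (horizontal axis, points with standard errors) for the 35 tested members, with ligands above, IL18BP between the dotted lines and receptors below; filled points passed an adjusted p of 0.05, blue lower and red higher. IL11 and CXCR4 lie farthest to the left, and IL18, IL15RA and IL1R1 are the filled points farthest to the right.

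Among the ligands, IL11 fell most. IL11 (Entrez 3589) is a cytokine of the IL6 family that acts through IL11RA and IL6ST and is made by stromal and epithelial cells in response to TGF-beta. Its reads numbered 204, 147 and 169 in shControl and 64, 57 and 39 in shRNF11 libraries. Every shRNF11 library held well under the lowest shControl count. Its mean level was 4.49 ± 0.725 CPM (reads per 1000000 of the scaled library total; SD, n = 3) in shControl and 1.41 ± 0.352 CPM in shRNF11 cells, 3.17-fold lower (adjusted p = 3.24e-08 in edgeR, log2 fold change -1.66, SE 0.222). Of all 13489 tested genes, 34 had a lower log2 fold change. The receptor chain that recognizes IL11, IL11RA, had 2.68 ± 0.244 CPM in shControl and 2.28 ± 0.619 CPM in shRNF11 cells and did not pass (log2 fold change -0.23, approximate 95% interval -0.68 to 0.23).

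IL18 was the 1 ligand that rose. IL18 (Entrez 3606) is a cytokine of the IL1 family that cells store as a precursor and release after cleavage by inflammatory caspases. It had 1697, 1658 and 1679 reads in shControl and 2808, 3030 and 2746 in shRNF11 libraries. The shControl libraries lay within a narrow band and all shRNF11 libraries far above it. The level went from 43.5 ± 0.308 to 75.8 ± 3.63 CPM (SD, n = 3 each), a 1.74-fold rise (log2 fold change 0.80, SE 0.0484, edgeR adjusted p = 3.00e-19). IL18BP, the secreted protein that neutralizes IL18, did not pass: its libraries held 676, 741 and 765 reads in shControl and 649, 739 and 697 in shRNF11, and its log2 fold change was -0.03 (approximate 95% interval -0.19 to 0.13). IL18R1, the chain that binds IL18, had 3 reads over all 6 libraries.

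A pair of chemokine ligands fell. CXCL16 (Entrez 58191), a chemokine made as a membrane protein that also takes up oxidized lipoproteins, had 649, 617 and 551 reads in shControl and 428, 413 and 467 in shRNF11 libraries. The groups did not overlap, and the level fell from 15.7 ± 1.31 to 11.5 ± 0.733 CPM, 1.36-fold lower (log2 fold change -0.44, SE 0.0966, edgeR adjusted p = 2.84e-04). CXCL8 (Entrez 3576), the main neutrophil attractant of human cells, was sparse, with 66, 75 and 74 reads in shControl and 36, 31 and 41 in shRNF11 libraries. All shRNF11 counts again lay below all shControl counts, at 0.954 ± 0.134 against 1.86 ± 0.134 CPM (1.94-fold lower, log2 fold change -0.96, SE 0.310, edgeR adjusted p = 0.0139). Few reads underlie the call on CXCL8: it was lost without shControl replicate 2 (log2 fold change -0.92, adjusted p = 0.0545) and without shRNF11 replicate 2 (log2 fold change -0.85, adjusted p = 0.0592).

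The other 10 tested ligands did not pass. IL6, the founding cytokine of the family that includes IL11, had 260, 252 and 276 reads in shControl and 210, 288 and 278 in shRNF11 libraries, so its groups overlapped. Reads of IL6 and IL12A cannot be told from those of their antisense genes, as the strand setting is not known. The IL6 log2 fold change was 0.01, with an approximate 95% interval of -0.25 to 0.27. The neutrophil attractants CXCL2 and CXCL3, close relatives of CXCL8 by function, had log2 fold changes of 0.01 (interval -0.47 to 0.48) and 0.28 (interval -0.52 to 1.07). The sequences of CXCL2, CXCL3 and CXCL1 are much alike, and reads may be split among them. CCL2, which attracts monocytes, had a log2 fold change of 0.21 with 40, 57 and 39 reads in shControl and 46, 65 and 43 in shRNF11 libraries.

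IL1B (50, 72 and 49 against 17, 31 and 54 reads) and IL1A (155, 153 and 159 against 121, 96 and 172 reads), the agonists of the IL1 receptor, varied widely within the shRNF11 group, and their groups overlapped. The log2 fold change of IL1B was -0.71 (adjusted p = 0.128); without shRNF11 replicate 3 it was -1.21 and passed (adjusted p = 0.0216). That of IL1A was -0.23. IL7, a growth factor of lymphocytes, had 32, 31 and 39 reads in shControl and 19, 20 and 19 in shRNF11 libraries; the groups did not overlap but the test did not pass (log2 fold change -0.78, SE 0.429, adjusted p = 0.167). The log2 fold change was 0.38 for IL12A, a subunit of IL12 and IL35, 0.09 for IL15, which supports natural killer cells, and 0.05 for IL32.

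**Figure D2:**
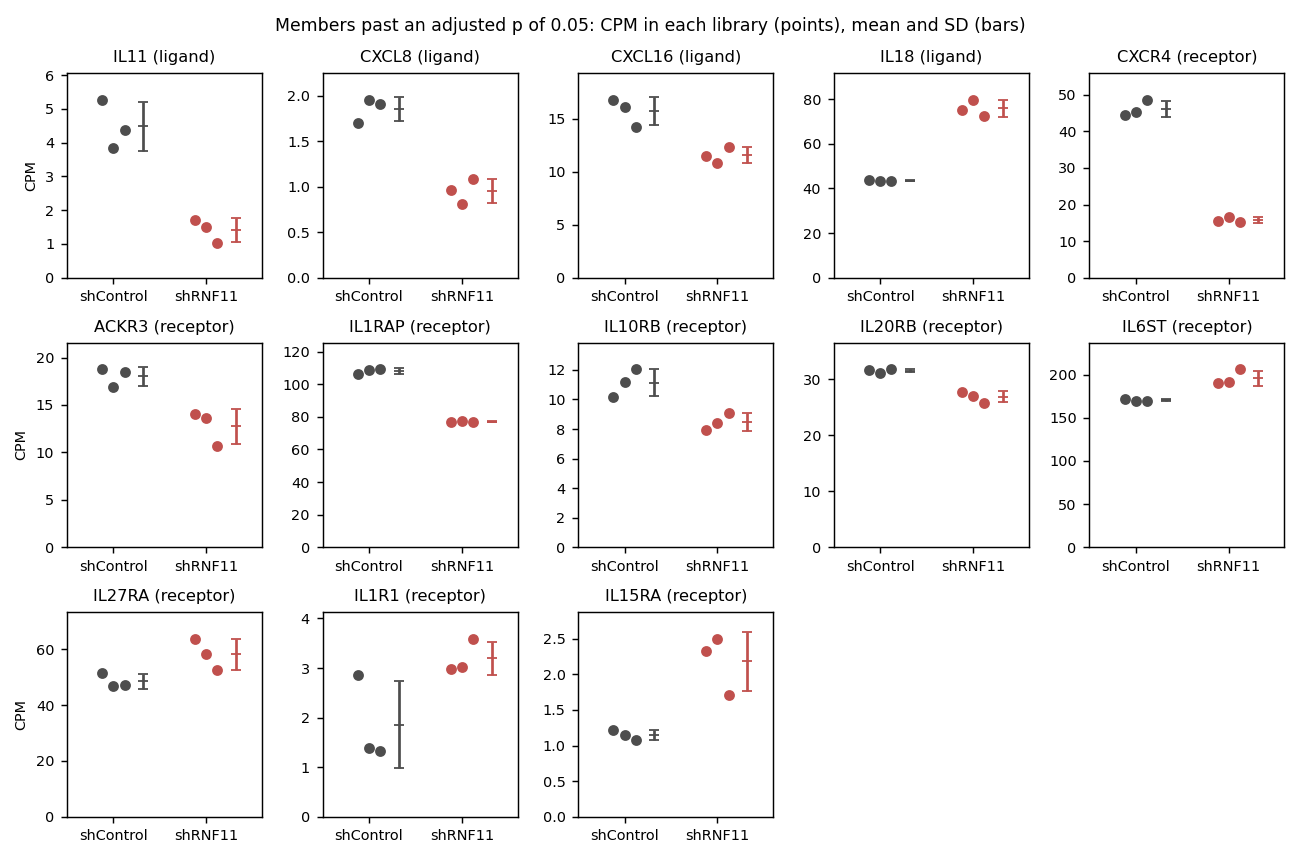
Level in CPM (vertical axes, each from 0) of the 13 members that changed, with 1 point per library, grey for shControl and red for shRNF11, and the mean with its SD (n = 3) beside the points. After scaling, the groups do not overlap in any panel. In the IL1R1 panel 1 shControl library, at 2.87 CPM, lies just under the lowest shRNF11 library, at 2.98 CPM. Both of these libraries held 111 reads. For IL27RA, shControl replicate 1 held 1999 reads and shRNF11 replicate 3 held 1995, so these gaps depend on the scaling.

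Among the chemokine receptors, CXCR4 and ACKR3, which share the ligand CXCL12, both fell. CXCR4 (Entrez 7852) signals through inhibitory G proteins and guides migrating cells. It had 1727, 1742 and 1883 reads in shControl and 582, 632 and 573 in shRNF11 libraries. Each shRNF11 library held well under the lowest shControl count, and the libraries of each group lay close together. The level was 46.2 ± 2.13 CPM in shControl and 15.8 ± 0.763 CPM in shRNF11 cells (adjusted p = 1.67e-25 in edgeR, log2 fold change -1.55, SE 0.0657). With each library omitted in turn, the value for CXCR4 stayed between -1.59 and -1.51. Of all tested genes, 48 had a lower log2 fold change.

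ACKR3 (Entrez 57007), a receptor that removes CXCL12 and CXCL11 without signalling through G proteins, had 726, 646 and 715 reads in shControl and 522, 517 and 403 in shRNF11 libraries. The groups did not overlap, and shRNF11 replicate 3 was the lowest library. The fall, from 18.0 ± 1.03 to 12.7 ± 1.84 CPM, was smaller than that of CXCR4 (1.41-fold lower, log2 fold change -0.50, SE 0.0953, edgeR adjusted p = 3.88e-05). Whether the changes of CXCR4 and ACKR3 differ was not tested. CXCL12 was not among the listed genes, and CXCL11 had 4 reads over all libraries. CCR10, a receptor for CCL27 and CCL28, was the third chemokine receptor tested; it had 19, 9 and 21 against 8, 4 and 19 reads, with overlapping groups and a log2 fold change of -0.62 (SE 0.587).

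The receptor chains of the IL1 family moved in opposite directions. IL1RAP (Entrez 3556), the accessory chain that IL1R1 and the receptors of IL33 and IL36 need to signal, had 4108, 4183 and 4225 reads in shControl and 2874, 2956 and 2907 in shRNF11 libraries. The replicates of each group differed little beside the gap between the groups. The level fell from 108.1 ± 1.74 to 77.1 ± 0.515 CPM, 1.40-fold lower (log2 fold change -0.49, SE 0.0396, edgeR adjusted p = 1.66e-14). IL1R1 (Entrez 3554), the chain that binds IL1A and IL1B, was higher, with 111, 53 and 51 reads in shControl and 111, 115 and 136 in shRNF11 libraries.

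The high count of shControl replicate 1 sets the size of the IL1R1 change. The level was 1.85 ± 0.876 CPM in shControl and 3.20 ± 0.339 CPM in shRNF11 cells (1.72-fold higher, log2 fold change 0.78, SE 0.247, edgeR adjusted p = 0.0115). Without shControl replicate 1 the log2 fold change of IL1R1 was 1.24. It was 0.61 without replicate 2 and 0.59 without replicate 3 of shControl, and the call was lost in both cases (adjusted p = 0.0719 and 0.0872). The decoy receptor IL1R2 and the IL33 receptor IL1RL1 had 4 and 1 reads over all libraries, and the antagonist IL1RN had 5.

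In the IL6 family, the shared chain rose a little. IL6ST (Entrez 3572), which carries the signal of IL6, IL11 and LIF among others, had 6638, 6514 and 6567 reads in shControl and 7116, 7269 and 7812 in shRNF11 libraries. All shRNF11 libraries lay above all shControl libraries, by a small margin. The level was 170.3 ± 0.977 CPM in shControl and 196.0 ± 8.69 CPM in shRNF11 cells, 1.15-fold higher (log2 fold change 0.20, SE 0.0335, edgeR adjusted p = 3.17e-06). IL27RA (Entrez 9466), which pairs with IL6ST to receive IL27, had 1999, 1800 and 1821 against 2374, 2217 and 1995 reads. By reads, shRNF11 replicate 3 lay just under the highest shControl library, and after scaling just above it. The rise was 1.20-fold, from 48.5 ± 2.68 to 58.2 ± 5.53 CPM (log2 fold change 0.26, SE 0.0552, edgeR adjusted p = 1.79e-04). IL6R, the chain that binds IL6, did not pass (11.6 ± 0.775 against 10.7 ± 1.96 CPM, log2 fold change -0.12, interval -0.34 to 0.10).

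Receptor chains of the IL10 family fell. IL10RB (Entrez 3588), the second chain for IL10, IL22 and the lambda interferons, had 395, 428 and 466 reads in shControl and 296, 319 and 345 in shRNF11 libraries. IL20RB (Entrez 53833), a chain for IL20 and IL24, had 1226, 1197 and 1231 against 1034, 1031 and 980 reads. In both genes the groups did not overlap. IL10RB went from 11.1 ± 0.918 to 8.47 ± 0.584 CPM (1.31-fold lower, log2 fold change -0.39, edgeR adjusted p = 0.00502) and IL20RB from 31.5 ± 0.303 to 26.9 ± 0.962 CPM (1.17-fold lower, log2 fold change -0.23, edgeR adjusted p = 0.00383). IL22RA1, which pairs with either of these chains, had 11, 2 and 6 against 9, 18 and 16 reads and did not pass (log2 fold change 1.19, SE 0.652, adjusted p = 0.163). IL20 and IL24, the ligands of IL20RB, had 3 and 5 reads over all libraries.

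IL15RA (Entrez 3601), which holds IL15 on the cell surface and presents it to neighbouring cells, was higher. It had 47, 44 and 42 reads in shControl and 87, 95 and 65 in shRNF11 libraries, with no overlap. The level went from 1.15 ± 0.0645 to 2.18 ± 0.413 CPM (1.90-fold higher, log2 fold change 0.92, SE 0.287, edgeR adjusted p = 0.0105). Without shRNF11 replicate 2 this call was lost (log2 fold change 0.82, adjusted p = 0.0637). IL15 itself had 95, 94 and 102 against 107, 95 and 101 reads. The signalling chains that IL15RA presents to, IL2RB and IL2RG, had 26 and 60 reads over all libraries and were not tested.

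Receptors of the IL4, IL13, IL17 and IL7 families did not pass. IL4R (45.2 ± 0.677 against 43.3 ± 5.13 CPM) and IL13RA1 (86.4 ± 2.22 against 81.4 ± 2.62 CPM), which together receive IL4 and IL13 in non-lymphoid cells, had log2 fold changes of -0.06 and -0.09. The narrow interval of IL13RA1, -0.17 to -0.00494, lay just under 0, and its adjusted p was 0.108. IL17RA, the shared chain of the IL17 family, had a log2 fold change of 0.02 (interval -0.13 to 0.17), and its partners IL17RC, IL17RD and IL17RE had -0.11, -0.14 and 0.18. IL7R had 309, 284 and 262 against 234, 218 and 243 reads; its groups did not overlap, and its adjusted p was 0.119 (log2 fold change -0.27).

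**Figure D3:**
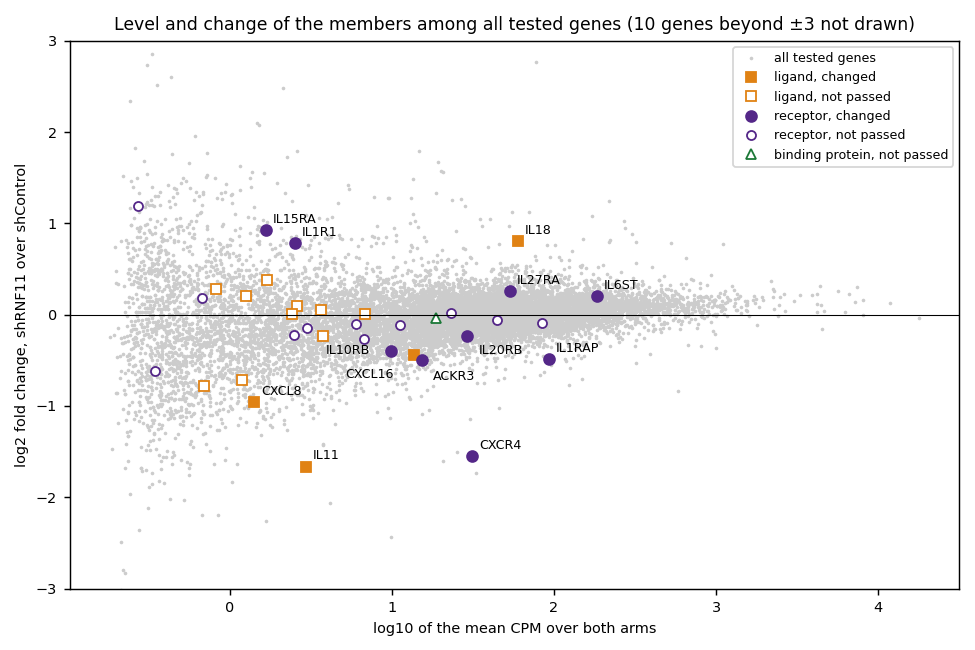
Log2 fold change (vertical axis) against the log10 of the mean CPM over both groups (horizontal axis) for all tested genes in grey, with ligands as squares, receptors as circles and IL18BP as a triangle; filled symbols changed, and 10 genes beyond 3 on the log2 scale are not drawn. CXCR4 and IL11 lie below most genes of their level and IL18 lies above most.

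Most members were sparse. All tested genes were divided by level into 5 bins of equal size. Of the 35 tested members, 14 lay in the lowest bin and 11 in the next, where 9.19% and 24.8% of genes changed and the median log2 fold changes were -0.16 and -0.09. Of those members 3 and 4 changed. In the upper 3 bins, where 32.2%, 38.8% and 55.7% of genes changed, 2 of 4, 2 of 3 and 2 of 3 members did. The median log2 fold changes there were -0.02, 0.01 and 0.06. In the highest bin, which holds IL6ST, 1154 genes were higher and 348 lower. Small changes of members were common among all tested genes. A higher log2 fold change than that of IL6ST was found for 1963 genes, and a lower one than that of IL20RB for 2566. Members of few reads had wide errors: the 1.54-fold difference of CCR10 had an SE of 0.587 on the log2 scale and did not pass. The smallest change detectable at this depth was not tested.

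The 44 members without a test had 1 to 60 reads over all 6 libraries, and 28 of them had fewer than 10. They include ligands of the inflammatory response, CXCL1 with 27 reads, CCL5 with 26, IL23A with 26, CCL20 and CXCL5 with 25 each, IL33 with 22 and IL34 with 20, beside IL17D with 46. None of these counts allows a statement on a change. CXCL10, a target of interferon, had 7 reads. CCR2, the receptor of CCL2, had 0 reads in each shControl library and 8, 11 and 2 in the shRNF11 libraries. Against an assumed 3 reads over the shControl group, the pooled shRNF11 reads were 7.16-fold higher. That figure leaves out the spread among the shRNF11 libraries and is not a lower bound. The level was so low that the gene did not enter the test. With no count filter its edgeR adjusted p was 0.0114, a value that rests on the shRNF11 reads alone. CCR2 is therefore given no call, as with the ligands above. The leukocyte marker LCP1 had 3 reads in shControl and 24 in shRNF11 libraries in all. The other listed leukocyte markers did not rise: CD14 had 36 and 34 reads, ITGAM 5 and 3, and CD68 was lower. The part of leukocytes in the CCR2 counts was not tested. CXCR5, with 9, 0 and 10 against 0, 6 and 0 reads, shows how uneven counts of this size are between replicates.

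**Figure D4:**
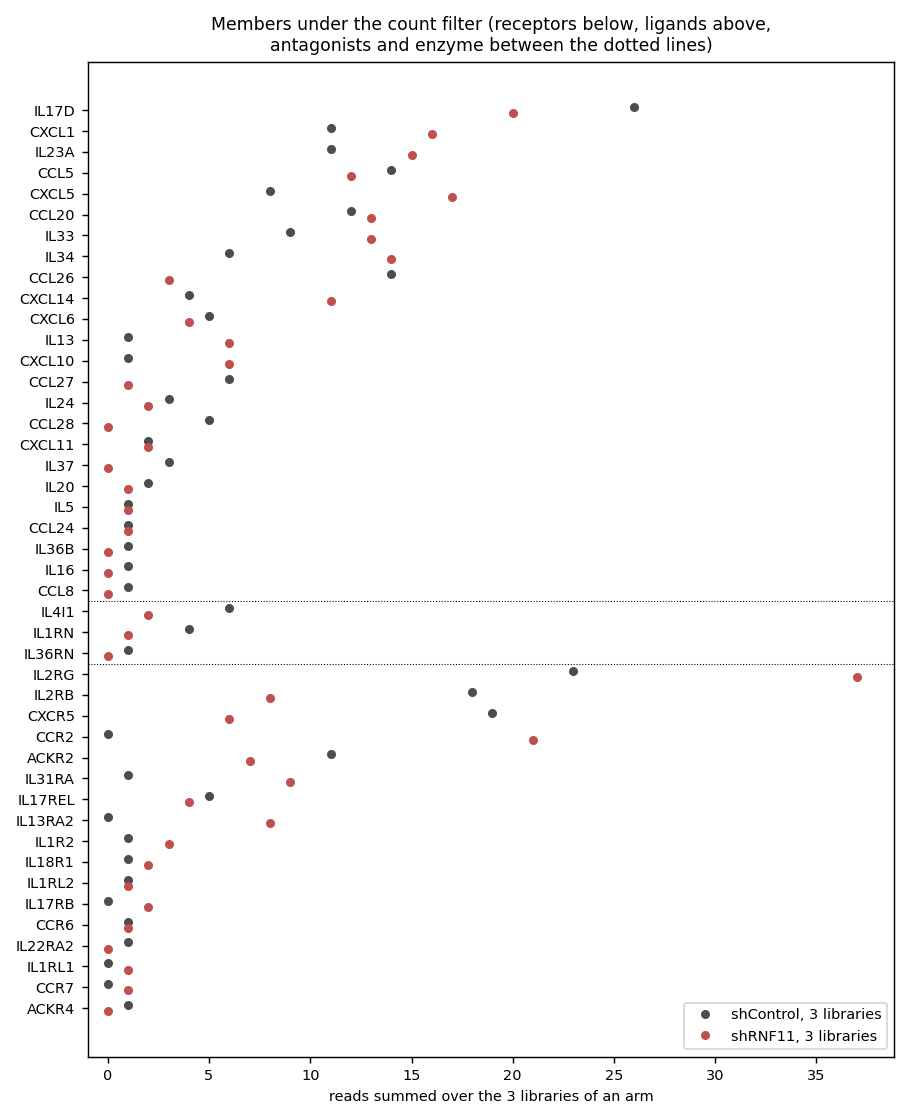
Reads summed over the 3 libraries of a group (horizontal axis) for the 44 members that did not pass the count filter, grey for shControl and red for shRNF11. IL2RG has the most reads, 60 over both groups, and CCR2 is at 0 in shControl and 21 in shRNF11.

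Of 24 genes of the JAK-STAT and MYD88 routes, 20 were tested, 2 were higher and 4 lower, with a median log2 fold change of -0.03. These 6 of 20 stand beside 32.1% of all tested genes, a share near that background. SOCS3, the feedback inhibitor that binds IL6ST, was 1.48-fold lower at 35.2 ± 1.69 against 52.3 ± 1.00 CPM (edgeR adjusted p = 2.72e-12). STAT6, the transcription factor of IL4 and IL13, was 1.33-fold higher at 65.0 ± 3.05 against 48.9 ± 0.826 CPM (adjusted p = 2.18e-09). STAT5B was 1.12-fold lower and IRAK1, a kinase below the IL1 receptor, 1.08-fold higher. STAT3, the main factor of IL6 and IL11, did not pass (log2 fold change -0.03, SE 0.0309), and MYD88, the adaptor of IL1 and IL18 receptors, had 102 reads over all libraries.

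Of 18 genes that couple or sort chemokine receptors, 17 were tested, 2 were higher and 3 lower (median log2 fold change -0.04), so that 5 of 17 changed beside 32.1% of all tested genes. RGS2, which speeds the shut-off of G proteins, was 1.70-fold higher at 127.6 ± 4.59 against 75.2 ± 1.98 CPM (edgeR adjusted p = 9.28e-22), and GNAI2, an inhibitory G protein subunit, 1.14-fold higher. VPS4A, an ATPase of lysosomal sorting, was 1.15-fold lower and ARRB2, an arrestin that binds CXCR4 and ACKR3, 1.24-fold lower. ITCH, the ligase known to mark CXCR4 for lysosomal breakdown, had a log2 fold change of 0.12 (SE 0.0467, adjusted p = 0.0528).

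Of 18 cytokines, receptors and receptor-like genes of these families that carry other names, 11 were tested, 3 were higher and 1 lower (median log2 fold change 0.04), so that 4 of 11 changed beside 32.1% of all tested genes. MIF, a cytokine that binds CXCR4, ACKR3 and CD74, was 1.18-fold higher at 387.9 ± 18.3 against 327.9 ± 3.22 CPM (edgeR adjusted p = 2.63e-09), and CD74 1.80-fold higher at 10.0 ± 0.640 against 5.58 ± 0.415 CPM (adjusted p = 3.01e-07). The 1 lower call, CTF1, a cytokine of the IL6 family, had 13, 15 and 18 reads in shControl and 1, 4 and 1 in shRNF11 libraries, and so met the minimum count through the shControl group alone. The receptors LIFR and OSMR of the same family did not pass. LIFR had a log2 fold change of 0.01 and OSMR of 0.04, with standard errors of 0.0368 and 0.0298.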

How the data were processed

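The authors deposited 1 table of raw read counts per gene for 6 libraries, with symbols, Entrez numbers and annotation terms. Per the submitters' processing notes, the tools were fastp, HISAT2 and HTSeq; genome build, annotation and strand setting: not given in the sources used here. Members and gene lists were chosen with earlier results of these data known. Groups and replicate numbers come from the sample titles. Genes were kept by filterByExpr (minimum count 10), scaled by TMM and tested for an effect of group, 2-sided, with edgeR 4.0.16 (quasi-likelihood; R 4.3.3). Benjamini-Hochberg adjustment covered the 13489 tested genes, and 0.05 was the threshold for a change. Standard errors come from the fold change and its F statistic, and 95% intervals follow from it. The fit was tested on simulated data. Of replicate pairs, none was a duplicate (chi-square per gene 3.79 to 5.85 within groups, 21.4 to 23.8 between). Named were CXCR4, all changed members, the other tested members, up to 8 untested ones with the most reads per role, and up to 4 genes with the smallest p per list, of which 1 is not reported here. IL18R1, CXCL10, CXCL11, IL20, IL24, IL1R2, IL1RL1, IL1RN, STAT3, MYD88, ITCH, LIFR, OSMR and ITGAM were named after their values were seen. The alternatives also used DESeq2 1.42.0 and limma 3.58.1. Protein sequences and promoters of the human genes were not used here. Depth was 37485850 to 39045440 reads per library, so members of few reads have wide errors.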

Additional observations from a re-analysis of the deposited data

How the results depend on the processing

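Of the 13 changed members, 10 passed under all scalings, filters, tools and left-out libraries that tested them; CXCL8, IL15RA and IL1R1 lost the call without 1 library, as given with their values. All 13 kept their direction in each alternative that tested them; CXCL8, IL11, IL15RA and IL1R1 were not tested at the 5 CPM filter. The call depends on asking for any change: against a 1.5-fold change, 84 genes, 2 ligands (IL11, IL18) and 1 receptor (CXCR4) passed, and 10 members lost the call. With a minimum of 2-fold, added after seeing the data, 215 genes, 1 ligand and 1 receptor were left. With a filter at a mean of 5 CPM, 3 ligands were tested and 2 changed, since fewer genes were tested; IL13RA1 then passed (adjusted p = 0.0490). It also passed with upper-quartile factors (0.0456) and library totals alone (0.00396), as did IL7R with library totals (0.0463). Leaving out 1 library gave 3478 to 3978 changed genes, 3 to 5 ligands and 8 to 9 receptors. Library totals alone moved the median log2 fold change of all genes by -0.0642 and the share of higher calls from 54.2% to 29.1%; among receptors the calls were 4 higher and 7 lower. Replicate numbers did not pair the libraries: the correlations of same-numbered deviations were -0.0159, -0.00586 and -0.00714, and no library correlated best with its own number. With the replicate block, 4399 genes, 4 ligands and 9 receptors changed, and no member's call did.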

Other observations

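Other cytokines and receptors changed in both directions. The table gives the KEGG term for cytokine-cytokine receptor interaction to 73 of the 79 members and to 98 other genes, a set chosen after the values were seen. Of these 98, 63 were tested, 7 were higher and 10 lower, with a median log2 fold change of -0.06; the share changed was under the 32.1% of all tested genes. GDF15, a stress-induced cytokine of the TGF-beta superfamily, was 2.19-fold lower at a mean of 2.05 CPM (SD 0.375, n = 3) against 4.49 CPM (SD 0.244, n = 3), with an edgeR adjusted p of 1.02e-05. TNFSF15, a cytokine of the TNF superfamily, had 2.25 ± 0.196 against 4.74 ± 0.497 CPM. INHA, the alpha subunit of inhibin, had 0.300 ± 0.144 against 1.39 ± 0.0582 CPM. At that shRNF11 level not every library reached the minimum count, so INHA met it through the shControl group. BMP6, which controls hepcidin in liver, was 1.31-fold lower at 99.4 ± 1.66 against 130.4 ± 3.47 CPM. IFNLR1, the lambda interferon receptor chain that pairs with IL10RB, had 1.81 ± 0.155 against 2.75 ± 0.621 CPM and passed narrowly (log2 fold change -0.61, adjusted p = 0.0498). Of the TGF-beta superfamily, the receptor TGFBR2 (1.17-fold) and the cytokines TGFB1 (1.24-fold) and GDF11 (1.25-fold) were higher. The receptor TGFBR1 (1.15-fold) and the cytokines TGFB2 (1.30-fold) and BMP2 (1.18-fold) of that superfamily were lower, as was NGFR (2.31-fold). Also higher were IFNGR1, the receptor of interferon gamma (1.29-fold), and LTBR, the lymphotoxin receptor (1.18-fold). The TNF receptors TNFRSF12A and TNFRSF1A were 1.07-fold higher each.

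Non-coding rows named after members were sparse. IL6-AS1 had 20, 23 and 14 reads in shControl and 11, 26 and 28 in shRNF11 libraries and was the 1 such row tested (log2 fold change 0.22, adjusted p = 0.770). IL12A-AS1 had 18 and IL6ST-DT 38 reads over all libraries. The strand setting of the counting is not given in the sources used here, so reads of an antisense gene and of its partner cannot be told apart.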
